A study of Mus musculus with 6 samples.

Results

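The 10 genes described here encode the contractile apparatus of smooth muscle and the factor that switches it on. They were chosen by name, with earlier results of these data known, and are *Acta2*, *Actg2*, *Myh11*, *Cnn1*, *Tagln*, *Des*, *Smtn*, *Lmod1*, *Myocd* and *Synpo2*. These are 10 of 49203 genes and unnamed probes on the array and 10 of the 38687 that were bright enough to be tested. RNA came from the uteri, ovaries and livers of immature female CD-1 mice, labelled as 24 days old, that had received BHPF (fluorene-9-bisphenol, a substitute for bisphenol A) at 50 mg per kg body weight, or peanut oil as the control, by gavage once a day for 3 days. Each tissue and treatment had 1 one-colour Agilent microarray, hybridized with Cy3-labelled cRNA of 1 pool of 3 mice, which makes 6 arrays in all. A uterus, an ovary or a liver is a mixture of cell types, and in such bulk RNA fewer cells of a type and less RNA per cell cannot be told apart.

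Smooth muscle forms the myometrium, the muscular wall that contracts the uterus, and it also forms the walls of blood vessels and of the oviduct. Its cells slide filaments of smooth muscle actin along filaments of smooth muscle myosin, and calponin, transgelin and smoothelin lie on the actin as regulators and markers of the contractile state. Most of these genes are switched on by serum response factor, which binds a short DNA element called the CArG box, together with its coactivator myocardin. The genes lie on different chromosomes, with *Acta2* on chromosome 19, *Actg2* on chromosome 6, *Myh11* on 16, *Cnn1* and *Tagln* on 9, *Des* and *Lmod1* on 1, *Smtn* and *Myocd* on 11 and *Synpo2* on 3.

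Because the CArG box is the element through which most of these genes are switched on, the 250 bases before the transcription start were read. This was done for the 6 genes that RefSeq's promoter table of GRCm38.p6 holds, *Acta2*, *Cnn1*, *Des*, *Smtn*, *Lmod1* and *Synpo2*. *Actg2*, *Myh11*, *Tagln* and *Myocd* had no entry. A perfect CArG box occurred in 0 of the 6 windows and in 1.47% of the 32851 windows of all genes. With 1 of its 10 positions allowed to differ, a rule chosen after the first search, the box occurred in 2 of the 6 windows, against 18.6% of all windows, and a window with 2 or more such boxes was found for *Acta2* and *Lmod1*, against 2.96% of all windows. On each strand the search gives the same matches, because the element reads the same way on both. In the 3 windows shown, read 5′ to 3′ on the strand of the gene, capitals mark the boxes with 1 position off, and the window of *Des* is given beside them as the gene with the largest difference between uterus and ovary, with no such box.
*Acta2*, chr19:34255374-34255623, minus strand: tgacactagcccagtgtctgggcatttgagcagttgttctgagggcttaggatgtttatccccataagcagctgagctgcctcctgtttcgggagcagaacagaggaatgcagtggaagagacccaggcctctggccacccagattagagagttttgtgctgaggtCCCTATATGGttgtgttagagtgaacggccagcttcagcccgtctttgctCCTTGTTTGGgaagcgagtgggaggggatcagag
*Lmod1*, chr1:135324563-135324812, plus strand: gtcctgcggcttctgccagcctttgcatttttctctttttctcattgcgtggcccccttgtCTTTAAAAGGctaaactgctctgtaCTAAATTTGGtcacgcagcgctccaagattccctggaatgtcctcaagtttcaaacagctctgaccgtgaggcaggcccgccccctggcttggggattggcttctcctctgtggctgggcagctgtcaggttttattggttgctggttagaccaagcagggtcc
*Des*, chr1:75360042-75360291, plus strand: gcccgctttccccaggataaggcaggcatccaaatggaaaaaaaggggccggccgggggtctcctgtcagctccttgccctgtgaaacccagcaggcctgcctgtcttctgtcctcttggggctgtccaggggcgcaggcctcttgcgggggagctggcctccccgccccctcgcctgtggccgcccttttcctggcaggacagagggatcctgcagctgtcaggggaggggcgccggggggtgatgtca
In *Acta2* the boxes ended 75 and 25 bases before the start, and in *Lmod1* they ended 180 and 155 bases before it. Letters that match in a window do not show that a factor binds there, and bases outside the windows were not searched.

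The level of a gene is its log2 intensity minus the 75th percentile of the array, so that a level of 0 is the intensity that 75% of the probes do not exceed. Levels of different genes are not set against each other, since probes differ in how they bind. Of the 6 arrays, between 61.4% and 74.6% of the probes were well above background and no spot was saturated. The 10 genes had 13 probes, 1 each except for *Smtn* with 2 and *Synpo2* with 3, and 7 of the genes were well above background on all 6 arrays. *Lmod1* and *Myocd* were not well above background in the liver, and *Synpo2* was so there only on the control array, through 1 of its 3 probes. Spots of 1 probe varied with an SD that gives a log2 ratio of 2 arrays an SD of 0.13 in the ovary and 0.14 in the uterus and the liver. That spread leaves out the variation between animals and pools, which was not measured.

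The labels of the 2 uterus arrays bear on every direction given for BHPF in that organ. A processed log2 table of the same arrays came with the scanner files, and its column headed control uterus matched the scanner file labelled BHPF uterus, after 1 constant was subtracted, for 100% of 38802 probes within 0.001 on the log2 scale, while the column headed BHPF uterus matched the file labelled control uterus. The labels under which the scanner files were deposited are used here, and with the other labels every difference between the uterus arrays would change sign. Fitted differences between tissues average both arrays and do not depend on this, but their p values and the differences on control or BHPF arrays alone do. With the 2 uterus arrays exchanged in the limma fit, the same number of genes passed, 8 against the ovary and 10 against the liver. All 6 arrays lay on 1 slide, where the controls came first and the treated samples after them, and the effects of place on the slide and of treatment cannot be told apart.

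**Figure D1:**
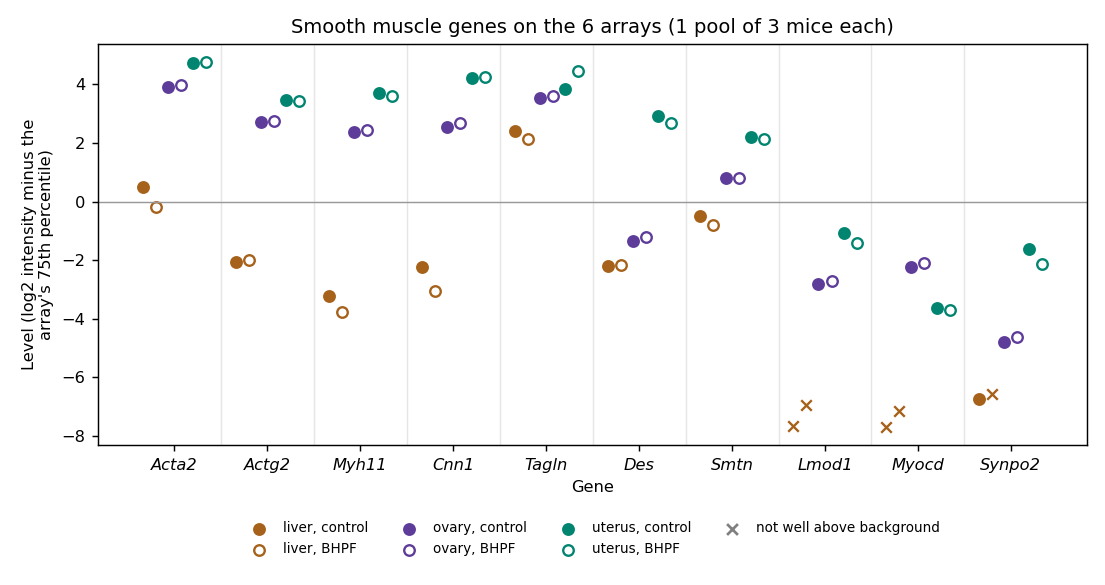
Levels of the 10 smooth muscle genes on the 6 arrays. The horizontal axis gives the gene and the vertical axis the level (log2 intensity minus the 75th percentile of the array); filled points are control arrays, open points BHPF arrays (colour gives the tissue), and crosses arrays on which no probe of the gene was well above background. In 9 of the 10 genes both uterus arrays lie above both ovary arrays, and in *Myocd* both lie below them.

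The actins and the myosin come first, as the filaments themselves. *Acta2*, smooth muscle alpha-actin, had levels of 4.75 (control) and 4.76 (BHPF) in the uterus, 3.91 and 3.97 in the ovary, and 0.51 and −0.19 in the liver. *Actg2*, the gamma-actin of smooth muscle, had levels of 3.48 and 3.42 in the uterus, 2.72 and 2.76 in the ovary and −2.07 and −1.99 in the liver. *Myh11*, the smooth muscle myosin heavy chain, had levels of 3.70 and 3.61 in the uterus, 2.36 and 2.44 in the ovary and −3.24 and −3.76 in the liver. All 3 filament genes were ordered uterus, ovary, liver, and the arrays of different tissues did not overlap. The step from ovary to uterus was a difference in level of 0.71 (SE 0.13) for *Actg2* and of 1.26 (SE 0.20) for *Myh11*, with adjusted p of 0.0330 and 0.0253 in limma, while that of *Acta2*, 0.82 (SE 0.25), did not pass the test (adjusted p = 0.099). The SE draws on the arrays of all 3 tissues, and for *Acta2* the 2 liver arrays lay further apart than those of uterus or ovary. Actin genes are alike in sequence, and whether the *Acta2* and *Actg2* probes also bind the RNA of other actins was not tested.

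Among the genes that act on the actin filament, *Cnn1*, calponin, which restrains the myosin motor, had levels of 4.23 (control) and 4.24 (BHPF) in the uterus, 2.56 and 2.67 in the ovary and −2.22 and −3.06 in the liver. *Tagln*, transgelin, an actin-bundling protein also known as SM22, had levels of 3.85 and 4.47 in the uterus, 3.54 and 3.60 in the ovary and 2.42 and 2.15 in the liver. *Smtn*, smoothelin, averaged 2.19 and 2.14 in the uterus, 0.80 and 0.82 in the ovary and −0.50 and −0.80 in the liver. *Cnn1* and *Smtn* stood apart between all 3 tissues, whereas the 2 uterus arrays of *Tagln* lay further apart than its control uterus array lay from the ovary. *Cnn1* was 3.08-fold and *Smtn* 2.56-fold higher in uterus than in ovary (differences of 1.62, SE 0.29, and 1.36, SE 0.15; adjusted p = 0.0337 and 0.0114), and *Tagln*, with a difference of 0.60 (SE 0.26), did not pass the test (adjusted p = 0.183). The 2 *Smtn* probes gave almost the same difference between uterus and ovary, 1.365 and 1.347.

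*Lmod1*, leiomodin, which starts new actin filaments, had levels of −1.07 (control) and −1.40 (BHPF) in the uterus and of −2.80 and −2.71 in the ovary, and it was not well above background on either liver array. *Synpo2*, an actin-binding protein of the Z-disc and of dense bodies, was read by 1 bright probe and 2 dim ones. The bright probe had levels of 2.69 and 2.45 in the uterus, 0.22 and 0.34 in the ovary and −4.93 and −5.98 in the liver, the last of which was not well above background. Both genes were higher in uterus than in ovary without overlap. *Lmod1* was 2.86-fold higher (1.52, SE 0.29, adjusted p = 0.0376), and the mean of the 3 *Synpo2* probes was 2.83 higher (SE 0.23, adjusted p = 0.00677), or at least 2.01 higher when the 2 probes that were not well above background in the ovary are set at the lowest intensity well above background.

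*Des* encodes desmin, an intermediate filament of muscle cells, and it separated the uterus from the ovary more than any other of the 10 genes. Its levels were 2.94 (control) and 2.67 (BHPF) in the uterus, −1.36 and −1.20 in the ovary and −2.19 and −2.16 in the liver. The difference between uterus and ovary was 4.08 (SE 0.16), or 16.9-fold, with an adjusted p of 0.00244 in limma. The ovary exceeded the liver by only 0.89 (adjusted p = 0.0162), the smallest step among the 10 genes between those organs. Desmin is also a gene of skeletal and cardiac muscle, and markers of those muscles are described beside the lists.

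*Myocd*, which encodes myocardin, the coactivator that drives the other genes, was the exception. Its levels were −3.65 (control) and −3.71 (BHPF) in the uterus and −2.23 and −2.11 in the ovary, and it was not well above background in the liver. Both ovary arrays lay above both uterus arrays, and the ovary was 2.85-fold higher, with a uterus minus ovary difference of −1.51 (SE 0.20) and an adjusted p of 0.0173. The intensity of its single probe was 425.5 and 346.2 in the uterus and 1599.5 and 1477.4 in the ovary, against a lowest intensity well above background of between 70.0 and 135.1 on the 6 arrays.

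Over the 10 genes, 7 were higher and 1 was lower in uterus than in ovary at an adjusted p below 0.05, against 12.0% of all 38687 rows that were higher and 10.4% that were lower. *Acta2* and *Tagln* passed in neither direction. The median difference of the 10 genes was 1.31, a 2.48-fold step, against 0.11 over all rows. It was 1.37 on the control arrays alone and 1.24 on the BHPF arrays alone. The calls rest on 2 arrays per tissue that also differ in treatment, with 2 residual degrees of freedom, and they did not survive the loss of an array of either organ. Without the control uterus array 0 of the 10 genes passed, as did 0 of all rows (10277 at an unadjusted p below 0.05), without the BHPF uterus array *Des* and *Synpo2* passed, and without either ovary array *Des* alone. In those fits 1 residual degree of freedom remains, and the differences kept their direction in all 10 genes.

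**Figure D2:**
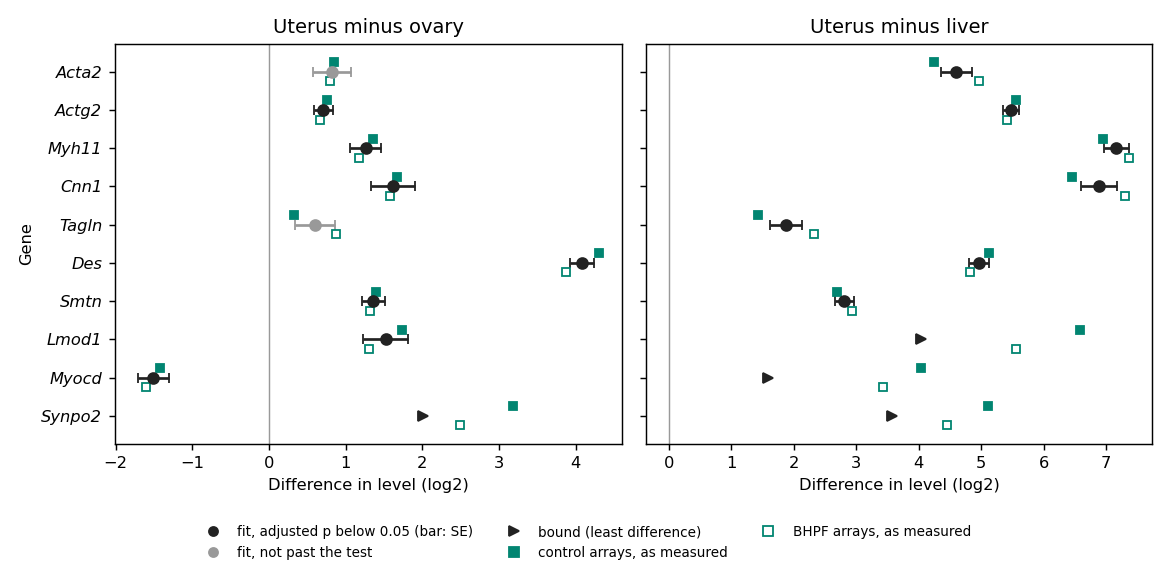
Differences in level (log2, horizontal axes) between uterus and ovary (left) and between uterus and liver (right) for each gene (vertical axis). Round points are the differences fitted by limma over 6 arrays with their SE as bars, black where the adjusted p is below 0.05 and grey where it is not; triangles are least differences where a probe was not well above background in the lower tissue; squares are the differences as measured on the control arrays (filled) and on the BHPF arrays (open). *Des* has the largest difference from ovary at 4.08, *Myocd* lies at −1.51, and all 10 genes lie above 0 against the liver.

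The liver holds little smooth muscle beyond that of its vessels, and all 10 genes were higher in uterus than in liver, with adjusted p between 0.000945 and 0.0087 in limma, against 27.6% of all rows that were higher. The p values of *Lmod1*, *Myocd* and in part *Synpo2* rest on liver values that were not well above background. With only rows well above background on all 6 arrays tested, 7 of the genes remained and all 7 passed. *Myh11* differed by 7.16 (SE 0.20), which is 142.5-fold, *Cnn1* by 6.88 (SE 0.29), *Actg2* by 5.48 (SE 0.13), *Des* by 4.97 (SE 0.16) and *Acta2* by 4.60 (SE 0.25). *Tagln* had the smallest difference of the genes that were well above background in the liver, 1.88 (SE 0.26) or 3.68-fold, since its level was above 2 on both liver arrays. For the genes that were not well above background in the liver only a least difference can be given, which was 4.03 for *Lmod1* and 1.59 for *Myocd*. The bright probe of *Synpo2*, well above background on 1 of the 2 liver arrays, differed by 8.02 as measured. The mean of the 3 *Synpo2* probes was 3.58 with dim probes at their bounds. The median over the 10 genes was 4.31 with these bounds, a 19.9-fold step, and 4.87 with the measured values, against 0.02 over all rows.

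Ovary and liver were also far apart. All 10 genes were higher in the ovary, against 29.1% of all rows that were higher, with adjusted p of at most 0.0201 in limma. Here too the p values of *Lmod1*, *Myocd* and in part *Synpo2* rest on liver values not well above background. *Myh11* differed by 5.90, *Cnn1* by 5.25, *Actg2* by 4.77 and *Acta2* by 3.78, while *Myocd* and *Lmod1* differed by at least 3.10 and 2.51. The bright probe of *Synpo2*, well above background on 1 of the 2 liver arrays, has no exact difference and differed by 5.73 as measured. The fitted mean of the 3 probes was 1.94, which includes 2 probes that were not well above background in either organ. *Smtn* (1.46), *Tagln* (1.29) and *Des* (0.89) were the smallest steps. The median over the genes was 3.44 with *Lmod1* and *Myocd* at their bounds and *Synpo2* at the 5.73 of its bright probe alone. The 2 other *Synpo2* probes, not well above background in either organ, were left out of that median. With the measured values of all probes it was 4.16. On the log2 scale most of the distance between uterus and liver lay between ovary and liver for the actins, the myosin and calponin. For *Des* most of it lay between uterus and ovary, 4.08 of 4.97.

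The mean profile of the 10 genes over the 6 arrays, each gene centred on its own mean, was nearest to that of *Acta2*, at a Euclidean distance of 0.67, and furthest from those of *Tagln* (3.12), *Des* (3.11) and *Myocd* (2.90). Among 14904 other named genes that were well above background on all uterus and ovary arrays, the 5 with the nearest profile were *Gabrb1*, a subunit of the GABA-A receptor, at a distance of 0.19, *Psd*, an exchange factor of the small GTPase ARF6, at 0.20, *Efna4*, a ligand of Eph receptors, at 0.28, *Pdgfrl* at 0.30 and *Ccdc136* at 0.31. *Psd* had levels of 1.36 (control) and 1.26 (BHPF) in the uterus, −0.27 and 0.04 in the ovary and −3.53 and −3.72 in the liver. *Gabrb1* was not well above background in the liver, *Ccdc136* not on the BHPF liver array, nor were *Lmod1* and *Myocd*, whose measured values enter the mean, so the distances and the first place of *Gabrb1* rest in part on such values.

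**Figure D3:**
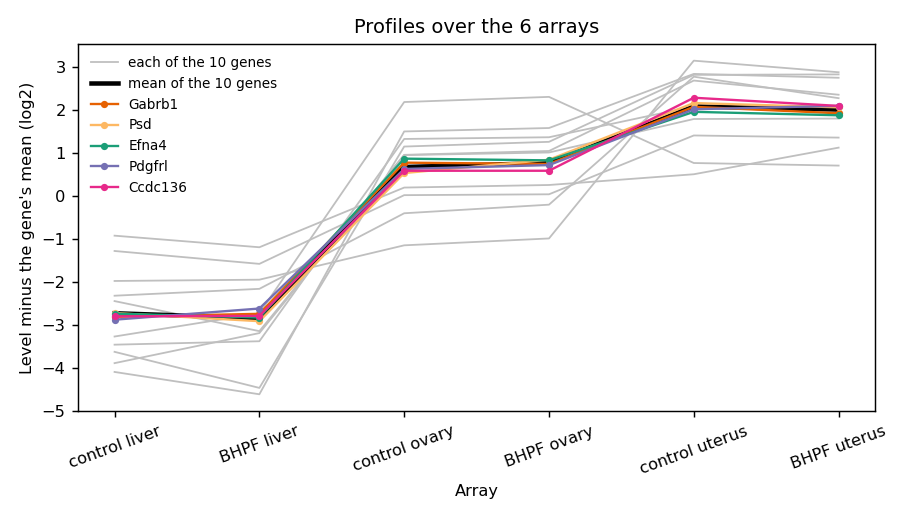
Profiles over the 6 arrays (horizontal axis) as the level minus the mean of the gene (log2, vertical axis), for each of the 10 genes (grey), their mean (black) and the 5 nearest other genes (coloured). Values of probes not well above background are included as measured, and the grey line that falls from ovary to uterus is *Myocd*.

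The wider contractile machinery was read from a list of other cytoskeletal genes. Of 35 further genes of the contractile and adhesion apparatus, 11 were higher in uterus, 1 was lower and 23 passed in neither direction, with a median difference of 0.50. Its 4 brightest genes on the control uterus array were *Myl9*, the regulatory light chain of smooth muscle myosin, *Vim*, the intermediate filament vimentin, *Tpm2*, tropomyosin beta, and *Flna*, the actin crosslinker filamin A, and none of them passed the test, with differences of 0.72, 0.50, 0.81 and 0.49 (adjusted p from 0.0596 to 0.155). Against the liver all 4 were higher, *Tpm2* by 3.69 and *Myl9* by 2.28 (adjusted p = 0.00126 and 0.00604), and 23 of the 35 genes were higher and 2 lower.

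Transcription factors that act with or against myocardin went both ways. Of 11 tested, 2 were higher and 3 lower in uterus than in ovary. *Klf4* and *Klf5*, zinc finger factors known to modulate the contractile state and also expressed in epithelia, were higher in uterus by 3.03 and 3.67 (adjusted p = 0.00244 and 0.00256). *Gata6* was lower, with a difference of −1.20 (adjusted p = 0.011), and *Tead1*, a partner of several muscle genes, differed by 0.07 (adjusted p = 0.721). *Myocd* was thus not alone among the regulators in being lower in uterus than in ovary.

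Of 20 genes of calcium handling and nitric oxide signalling, 5 were higher and 3 lower in uterus than in ovary, with a median of 0.30. *Ano1*, a calcium-activated chloride channel of smooth muscle and epithelium, was higher by 0.84 (adjusted p = 0.0408), while *Itpr1*, the IP3 receptor (−0.16), *Rhoa*, the GTPase that keeps myosin phosphorylated (0.29), and *Stim1*, a sensor of calcium stores (0.41), passed in neither direction. Of 12 receptors and junction genes of uterine contraction, 7 were higher and 1 lower, with a median of 1.36 at the bounds. The lower one was *Gja1*, a connexin of gap junctions, with levels of 0.38 and 0.05 in the uterus and 2.45 and 2.33 in the ovary, a difference of −2.17 (adjusted p = 0.00491). *Oxtr*, the oxytocin receptor, and *Ednra*, an endothelin receptor, differed by −0.23 and −0.01 (adjusted p = 0.748 and 0.959), and *Ptger1*, a prostaglandin E receptor, was higher by 2.07 (adjusted p = 0.041).

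**Figure D4:**
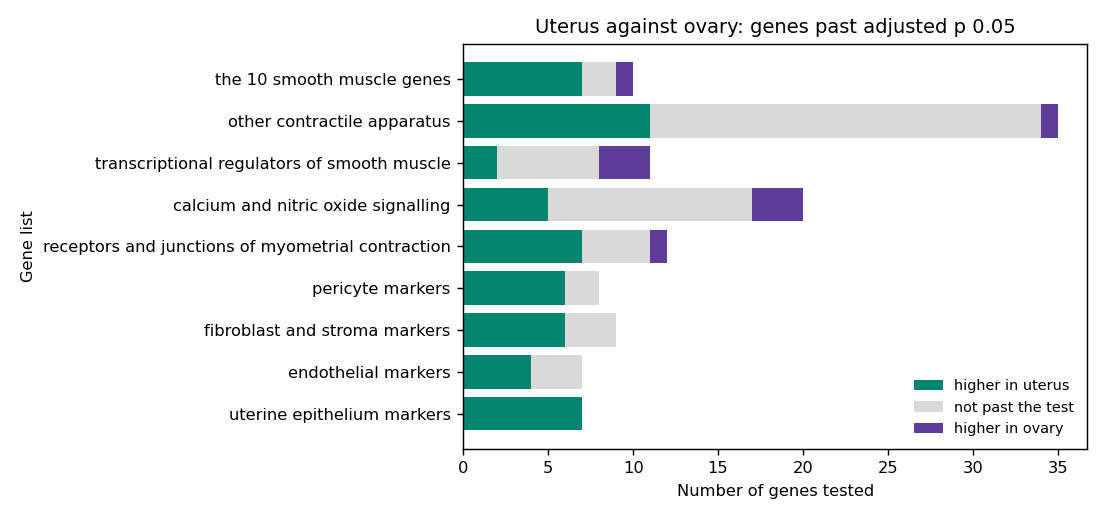
Number of genes in each list (vertical axis) that were higher in uterus, higher in ovary or past the test in neither direction (bar segments, horizontal axis in genes tested) at an adjusted p below 0.05 in limma. The 10 smooth muscle genes have 7 higher and 1 lower, the 35 further contractile genes 11 and 1, and the uterine epithelium markers 7 of 7 higher.

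Markers of other cells of the uterine wall were higher in uterus than in ovary as well. Of 9 markers of fibroblasts and stroma 6 were higher, among them *Col1a1* by 1.25, *Col3a1* by 1.03 and *Col1a2* by 0.80. Of 8 pericyte markers, genes of the contractile cells that wrap small vessels, 6 were higher, such as *Rgs5* by 1.66, *Mcam* by 1.04 and *Notch3* by 0.96, while *Pdgfrb* (0.53) did not pass the test. Of 7 endothelial markers 4 were higher, with *Vwf* at 1.62 and *Pecam1* at 1.20. All 7 epithelial markers were higher, with *Krt19* at 3.15, *Epcam* at 3.08, *Krt18* at 2.55 and *Krt8* at 2.21. The summed intensity of the 10 smooth muscle genes, in units of the 75th percentile of each array and over the brightest probe of each gene, was 106.6 and 110.9 in the uterus and 49.1 and 51.4 in the ovary. That of the stroma list was 121.7 and 125.4 against 60.6 and 62.1, and that of the endothelial list 12.41 and 11.46 against 6.91 and 6.46, and the part of tissue makeup in the smooth muscle difference was not tested.

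Markers of other muscle were mixed. Of 13 skeletal muscle markers 10 were tested, and *Myh1*, *Myh4* and *Mylpf* were left out because they were well above background on no array. Of the 10 tested, 5 were higher in uterus than in ovary, 1 was lower and 4 passed in neither direction. The summed intensity of the tested markers was 14.9 and 11.6 in the uterus against 3.00 and 2.88 in the ovary. *Tnni2*, troponin I of fast skeletal muscle, had levels of 2.73 and 2.03 in the uterus and −1.80 and −2.05 in the ovary, a difference of 4.30 (adjusted p = 0.00242), close in size to that of *Des*. *Acta1*, skeletal alpha-actin, differed by 1.70 and *Tnnt3*, fast troponin T, by 2.82 (adjusted p = 0.00934 and 0.00821). The lower one was *Myh2*, a fast myosin heavy chain, which like *Myl1*, a myosin light chain, was not well above background on either uterus array, and *Atp2a1*, a calcium pump, and *Pvalb*, parvalbumin, differed by −0.34 and −0.05 (adjusted p = 0.279 and 0.906). Of 5 cardiac markers 1 was higher in uterus, *Actc1* at 2.16 (adjusted p = 0.025), and 2 were lower, *Tnni3* at −4.02 and *Myh6* at −2.49. The part of skeletal muscle in the desmin difference was not tested.

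The arrays carried the markers of their labelled organs, with all 8 hepatocyte markers higher in liver than in uterus, and with 8 of 9 granulosa, theca and oocyte markers higher in ovary than in uterus, *Cyp17a1* among them at a uterus minus ovary difference of −7.81 and *Inha* at −4.62. Dissected ovary can carry oviduct, which has a muscle coat of its own. Of 4 oviduct epithelium markers, a list added after the levels of the 10 genes had been seen, *Ovgp1*, oviductal glycoprotein, had levels of −0.84 and −1.58 in the ovary and 1.70 and 1.25 in the uterus, and 3 of the 4 were higher in uterus. The summed intensity of these markers was 0.715 and 0.409 in the ovary and 4.82 and 4.25 in the uterus, and the part of oviduct muscle in either organ was not tested.

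The second question was whether BHPF moved these genes. Over the 3 tissues together, a fit with tissue as a term gave 0 of the 10 genes a difference between BHPF and control arrays at an adjusted p below 0.05, against 0.0% of all rows, and none of the 10 had an unadjusted p below 0.05, where 2024 of the 38687 rows did. The smallest p of the 10 was 0.292, that of *Myocd*, whose adjusted p was 0.772. Fitted differences lay between −0.24 for *Cnn1* (SE 0.24) and 0.20 for *Myocd* (SE 0.16), with a median of −0.04. The fits of *Lmod1*, *Myocd* and in part *Synpo2* include liver values not well above background. For *Myocd* these were −7.69 (control) and −7.15 (BHPF), while its ratios were −0.06 in the uterus and 0.12 in the ovary. This test sees only a change that all 3 tissues share, and within a tissue there is 1 array per treatment and no test.

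In the uterus, 0 of the 10 genes differed by 2-fold between the BHPF and the control array, against 2.86% of the 33980 rows evaluated. Their median log2 ratio of BHPF over control was −0.06, against 0.02 over all rows. Of the genes 3 lay above and 7 below 0, where 53.4% of all rows lay above 0. *Acta2*, *Actg2*, *Myh11*, *Cnn1*, *Smtn* and *Myocd* lay between −0.09 and 0.01, or between 93.9% and 100.7% of control. *Tagln* lay apart at 0.62, which is 153.8% of control and the only ratio of the 10 above 0.28, the limit that 2 spot SDs set and that 16.1% of all rows exceeded. *Lmod1* lay beyond that limit on the lower side, at −0.33 (79.8% of control), as did 11.6% of all rows, while *Des* lay just inside it at −0.27 (83.0%) and *Synpo2* was at −0.14 (90.5%). The value of *Synpo2* holds 1 of its 3 probes at a bound, and with the values as measured it was −0.50, beyond the limit. With 1 pool per treatment, neither ratio has a replicate check.

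The BHPF uterus array also differed from the control uterus array in genes of other tissues. All 8 hepatocyte markers were higher by at least 2-fold on it, with log2 ratios from 3.35 for *Ahsg* to 5.49 for *Apoa1* and with *Alb* (4.28), *Fgb* (4.54), *Apoa2* (4.26), *Ttr* (3.78), *Serpina3k* (5.13) and *Apoh* (5.23) between them, and their summed intensity was 36.6 against 2.21, where the liver arrays had 296.2 and 307.9. Of 5 evaluated adipocyte markers 3 were lower by at least 2-fold, with *Adipoq* at −3.31, *Cfd* at −2.71 and *Fabp4* at −1.46. All 7 endothelial markers had ratios below 0, with a median of −0.12. Of 8 evaluated skeletal muscle markers 4 lay above and 4 below 0, from 0.36 for *Pvalb* to −0.70 for *Tnni2* and −0.76 for *Tnnt3*, and of 5 cardiac markers 1 lay above and 4 below, from 0.03 for *Tnnt2* to −1.23 for *Actc1*. Of the further contractile genes 11 lay above and 24 below 0, with a median of −0.06 and none at 2-fold. *Oxtr* had the only 2-fold ratio among the receptors, −1.27, from a level of 0.72 to −0.55. The part of these other tissues in the ratios of *Tagln*, *Lmod1* and *Des* was not tested.

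In the ovary, the 10 genes differed between the arrays by less than 2 spot SDs. All 10 ratios were above 0, as were 52.5% of all rows. They lay between 0.02 (*Smtn*) and 0.16 (*Des*), none beyond the limit of 0.26. Their median was 0.09 against 0.01 over all rows, and 0 reached 2-fold, against 1.42% of 36547 rows. The shared sign did not hold under another treatment of the signal, since with normexp on median intensities and an offset of 50 the median was −0.01 and 6 of the 10 lay below the median of all rows. Among the further contractile genes *Csrp1*, a LIM protein of smooth muscle, had the only 2-fold ratio, −1.26, from a level of 2.62 to 1.36. Among the marker lists *Cfd* (2.05), *Adipoq* (1.35) and *Myh6* (1.15) were higher and *Foxj1* (−1.16), a factor of ciliated cells, was lower by at least 2-fold on the BHPF ovary array.

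In the liver, 8 of the 10 genes could be evaluated, and 0 of them differed by 2-fold, against 7.75% of 32056 rows. *Cnn1* had a log2 ratio of −0.85 (55.6% of control), *Acta2* of −0.71 (61.2%), *Myh11* of −0.52 (69.6%), *Smtn* of −0.29 (81.6%) and *Tagln* of −0.27 (82.7%), whereas *Actg2* (0.08) and *Des* (0.03) lay near 0 and *Synpo2* gave no difference at its bound (−1.05 for its bright probe as measured). Of these ratios 5 were lower by more than the limit of 2 spot SDs, 0.27, as were 11.8% of all rows, and that of *Tagln* lay at the limit. The median of the 8 genes was −0.28 against 0.09 over all rows, whose quartiles were −0.10 and 0.37, and the 7 genes with a measured value all lay below the median of all rows. The 2 *Smtn* probes disagreed here, at −0.03 and −0.55.

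The size of the liver ratios depended on the scaling. With each array set to its 50th percentile, the median of all rows moved from 0.09 to −0.21 and that of the 8 genes to −0.60, and with quantile normalization they were −0.01 and −0.40. The distance of the median of the 8 genes from that of all rows was −0.37 as first given, −0.38 with quantile normalization and −0.59 with normexp, and another percentile cannot change it much because it shifts every gene of an array alike. The place of *Synpo2* was set by its bound, and with the mean over all of its probes it was at 0.51.

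Other genes of vessels and contractile cells in the liver were read beside them. Of all rows evaluated there 61.6% lay above 0, with a median of 0.09. *Myl9* had a ratio of −0.70 in the liver, *Flna* of −0.56, *Tpm2* of −0.46 and *Vim* of −0.25, and of 33 further contractile genes 19 lay below 0, with a median of −0.07. Of the 7 endothelial markers 3 lay above and 4 below 0, from 0.31 for *Tie1* to −0.57 for *Cdh5* and −0.75 for *Pecam1*, and of the 8 pericyte markers 3 lay above and 5 below, from 2.14 for *Cspg4* and 0.42 for *Rgs5* to −0.53 for *Pdgfrb*, with a median of −0.07 for each list. Other genes of the lists past 2-fold in the liver were *Mrtfb*, a coactivator related to myocardin, at 1.35, *Tnnt2* at −1.61 and *Cfd* at −1.63, and, at their bounds, *Pde5a*, which breaks down cyclic GMP, at 3.19, *Zp3* at 1.65 and *Myl1* at 1.14. The summed intensity of the 10 genes was 8.74 on the control and 6.78 on the BHPF liver array, that of the endothelial list 9.40 and 8.28, that of the pericyte list 37.7 and 36.8 and that of the stroma list 52.1 and 51.0. Markers of hepatic stellate cells, the pericytes of the liver, had a median ratio of 0.08, against 0.09 over all rows, with 6 of 6 above 0. Among them *Lrat* and *Colec11* were at 0.15 and 0.01. The part of vessel content in the liver ratios was not tested.

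**Figure D5:**
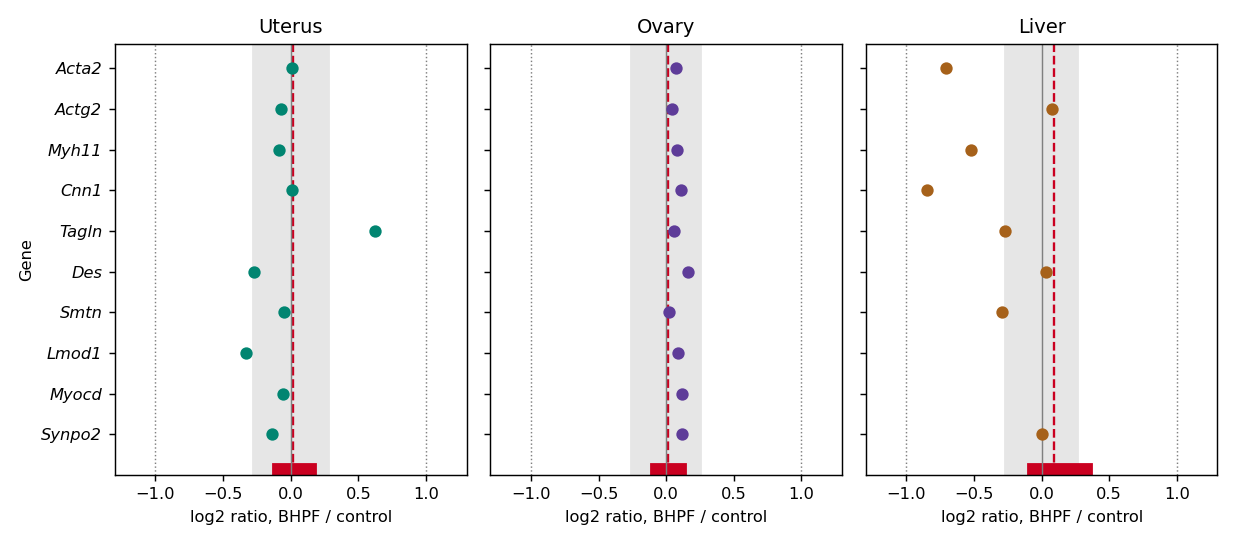
Log2 ratios of BHPF over control (horizontal axes) for each gene (vertical axis) in uterus, ovary and liver, each from 1 array per treatment. The grey band spans 2 spot SDs on either side of 0, dotted lines mark 2-fold, the dashed red line is the median of all rows and the red bar their quartiles; *Lmod1* and *Myocd* have no value in the liver, and *Synpo2* is shown there at its bound. All 10 genes lie within the band in the ovary, *Tagln* lies at 0.62 in the uterus, and *Cnn1* at −0.85 and *Acta2* at −0.71 in the liver.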

How the data were processed

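The authors scanned 6 one-colour arrays and deposited, per the file headers from Agilent Feature Extraction 11.5.1.1 (the labels name 9.1), linear spot intensity with background subtracted and no scaling between arrays. The log2 table, which the authors made with GeneSpring, was equal to the log2 intensity minus a constant near the 75th percentile of each array, and served only as an alternative. Control spots and outlier spots were left out, spots of 1 probe were averaged as log2, and the 75th percentile of the array was subtracted. Accessions of 26762 of 55681 probes (48.1%) matched a RefSeq table of GRCm38.p6; the array design names another build, so its coordinates were not used. Probes of a gene well above background on at least 1 of 6 arrays were averaged, and other probes stood as rows of their own.

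Tissue differences and the BHPF effect common to the tissues were fitted with limma 3.58.1 (R 4.3.3) on tissue and treatment, with Benjamini-Hochberg adjustment over 38687 rows and a threshold of 0.05. With 1 array per tissue and treatment, the adjusted p values rest on how far the difference between BHPF and control varies between tissues. They do not measure the spread between pools. Within a tissue a ratio had no test and 2-fold was the call. A probe not well above background on 1 side was set there at the higher of its own value and the lowest intensity well above background, and a bound that crossed 0 was counted as no difference. The script was tested on simulated data. The 10 genes, the other lists and their tests were chosen with earlier results of these data known. All 10 genes are named, with up to 4 genes of each other list that were brightest on the control array of the uterus (or of their own organ), genes of the lists past 2-fold, and the 5 nearest profiles. Alternatives covered the background correction (normexp with an offset of 50, on median intensities), the scaling, the authors' table, the probe rule, the filter on dim genes, the fold threshold, the model and each array left out. The number of arrays limits the precision.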

Additional observations from a re-analysis of the deposited data

Results flagged for a closer look

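*Tagln* had a log2 ratio of BHPF over control of 0.62 in the uterus and of −0.27 in the liver, so that the direction was opposite in the 2 tissues and each ratio passed 2 spot SDs. In the ovary it was 0.06. Each tissue has 1 array per treatment, and the difference was not tested. With the column headings of the authors' table the uterus ratio is −0.62. With normexp the ratios were 0.43 in the uterus, −0.45 in the liver and −0.07 in the ovary.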

How the results depend on the processing

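The differences between uterus and ovary kept their direction in all 10 genes under every alternative that was run. Their median of 1.31 was 1.17 with the 50th percentile and lay between 1.16 and 1.45 when 1 array was left out. The number of genes past the test, 8, ranged from 0 to 9 with 1 array left out, and was 7 with the 50th percentile, which loses *Actg2* (adjusted p = 0.0795, range over its alternatives 0.0123 to 0.219), and 6 with quantile normalization, which loses *Myh11* and *Cnn1*. *Acta2* passed with either liver array left out or when genes well above background on all 6 arrays were tested alone (adjusted p = 0.0312 to 0.384 over its alternatives). Calls lost with an array of the uterus or ovary left out come with 1 residual degree of freedom in place of 2. The median between uterus and liver, 4.31, was 3.86 with the 50th percentile, 4.68 with a 75th percentile taken from the probes that every array detected, 4.16 with quantile normalization, 5.23 with the authors' table under either set of uterus headings, 4.79 with the brightest probe, 4.87 with measured values in place of bounds, 4.82 on the BHPF arrays alone and between 4.78 and 5.13 with 1 array left out, where no bounds are set. Of all rows called between uterus and liver, 53.7% were higher in uterus, 33.8% with the 50th percentile and 70.8% with the 75th percentile from probes that every array detected, which move the median of all rows from 0.02 to −0.44 and 0.38. All genes called between uterus and liver stayed so where they could be tested. In the liver with BHPF the median of −0.28 was −0.44 with normexp and −0.60 with the 50th percentile. At 2-fold 0 genes were called there, 2 with the 50th percentile and 2 at 1.5-fold, and 1 with quantile normalization, with the authors' table under either set of headings and with measured values in place of bounds. In the uterus 1 gene, *Tagln*, passed at 1.5-fold, and its log2 ratio there was 0.43 with normexp. The cause of these shifts was not tested. No paired analysis was possible because each tissue and treatment has 1 array and the labels do not say whether the tissues of a treatment came from the same mice. The fit held treatment as a term, and without it the same number of genes, 8 against the ovary and 10 against the liver, passed. The signal sets a limit in that *Lmod1* and *Myocd* have only a bound in the liver and that no ratio with BHPF within a tissue has an error between pools.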
